A study of Mus musculus with 2 samples.

Results

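The genes described here are the glutathione transferases and the enzymes of glutathione metabolism in mouse liver. They were taken by symbol from the deposited expression table: the alpha, mu, pi, theta, kappa, omega, zeta and microsomal transferase genes, the numbered glutathione peroxidases, and 10 further enzymes that make, recycle or break down glutathione (Gclc, Gclm, Gss, Gsr, Ggt1, Ggct, Oplah, Chac2, Glrx and Glrx2). The rule found 42 of the 24054 genes in the table, by symbol alone, with no measured value in the rule. Of these, 35 had a mean TPM of 1 or more over both libraries (TPM, a share of the transcript pool corrected for transcript length), as did 11623 genes in all.

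Liver RNA of Pgrmc1 KO mice (Pgrmc1 -/Y) and of WT mice was sequenced to ask how loss of Pgrmc1, a heme-binding membrane protein, alters liver transcripts. All mice were C57BL/6 males of 8 to 12 weeks. The KO is a whole-body deletion, made by crossing a floxed Pgrmc1 allele to Sox2-Cre mice, so every tissue lacks the gene and not the liver alone; whether the WT mice carried a Cre or floxed allele is not given in the sources used here. Equal masses of RNA from 5 mice of each genotype were pooled into 1 library per genotype. The spread between mice was therefore not measured, no test between genotypes can be made, and every difference below is a difference between 2 pools.

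Glutathione is a tripeptide of glutamate, cysteine and glycine that liver cells hold at high concentration. Transferases join it to electrophilic compounds, among them reactive products of cytochromes P450, and peroxidases use it to reduce peroxides. The oxidized form is returned to glutathione by a reductase that uses NADPH. Conjugates leave the cell through transporters and are trimmed to mercapturates. Many of these genes are known targets of NRF2 (Nfe2l2), which binds the antioxidant response element.

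The largest difference in summed TPM was that of the mu class, whose 7 genes stand in a row on chromosome 3. The 250 bases before a RefSeq start of 4 of them are shown, because 3 (Gstm3, Gstm1 and Gstm4) were lower in the KO pool and Gstm2, which lies between Gstm3 and Gstm1, was not. The sequences are from RefSeq, build GRCm38, written 5′ to 3′ on the strand of the gene. Capitals mark matches to TGANNNNGC, a loose form of the antioxidant response element core, on either strand.
Gstm3, chr3:107969175-107969424 (-): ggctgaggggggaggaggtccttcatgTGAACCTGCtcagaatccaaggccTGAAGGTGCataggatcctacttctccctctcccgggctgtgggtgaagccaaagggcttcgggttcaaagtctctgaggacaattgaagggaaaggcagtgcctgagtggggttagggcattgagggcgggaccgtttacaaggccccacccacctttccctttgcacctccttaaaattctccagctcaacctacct
Gstm2, chr3:107986421-107986670 (-): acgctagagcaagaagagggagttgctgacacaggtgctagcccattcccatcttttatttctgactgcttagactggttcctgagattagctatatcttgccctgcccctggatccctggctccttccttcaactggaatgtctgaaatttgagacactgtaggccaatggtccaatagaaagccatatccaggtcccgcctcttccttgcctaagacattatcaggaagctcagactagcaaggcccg
Gstm1, chr3:108017974-108018223 (-): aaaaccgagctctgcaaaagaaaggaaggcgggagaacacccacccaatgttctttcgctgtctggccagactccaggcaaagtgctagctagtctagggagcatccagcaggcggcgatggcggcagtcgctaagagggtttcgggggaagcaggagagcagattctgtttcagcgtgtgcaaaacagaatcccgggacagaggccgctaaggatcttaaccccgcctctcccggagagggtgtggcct
Gstm4, chr3:108044860-108045109 (-): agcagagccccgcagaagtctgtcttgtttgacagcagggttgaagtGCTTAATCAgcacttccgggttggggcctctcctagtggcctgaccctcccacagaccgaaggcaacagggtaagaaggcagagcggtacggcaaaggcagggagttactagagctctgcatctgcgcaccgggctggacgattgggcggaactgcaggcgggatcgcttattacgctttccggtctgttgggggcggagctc

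The loose core was matched 2 times before Gstm3, 1 time before Gstm4, and not before Gstm2 or Gstm1. Gstm1 has a second start in RefSeq that is not shown. The Gstm4 window lies inside the span of the gene, whose 5′ end is at 108045179, so the bases before its outermost start are not shown. Over windows from 250 bases before to 50 after the start, the loose core was found in 19 of 37 members with a promoter entry (51.4%) and in 45.0% of 27025 genes. A gene counted if any of its windows matched, and the 37 members had 56 windows against 32851 for the 27025 genes. Members thus had more windows per gene. Per window, the loose core was found in 42.9% of member windows and 41.3% of all windows. The stricter core TGACNNNGC, every match of which is also a match to the loose one, was found in 7 members (18.9%) and in 14.0% of genes. Per window these shares were 16.1% and 12.4%. The 7 were Gclm, Ggct, Ggt1, Gsta3, Gstm5, Gstm7 and Mgst1. Neither share of the members was compared by a test, and a match is a description of letters only. For 4 of the 7, chosen to show a transferase of each of 3 classes and a synthesis gene, the match is printed in capitals with 15 bases on each side. In Gsta3 and Gstm7 it reads as TGACNNNGC, and in Gclm and Mgst1 as its reverse complement.
Gsta3, chr1:21240449-21240487 (+): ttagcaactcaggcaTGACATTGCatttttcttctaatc
Gclm, chr3:122245408-122245446 (+): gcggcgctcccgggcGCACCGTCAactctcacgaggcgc
Mgst1, chr6:138140456-138140494 (+): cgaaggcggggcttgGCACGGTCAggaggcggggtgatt
Gstm7, chr3:107931720-107931758 (-): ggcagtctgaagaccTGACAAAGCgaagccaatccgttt

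None of these 4 genes was among those lower in the KO pool by 1.2-fold. The upstream sequences of the mu genes were about as alike within the class as between classes: mu pairs had 117 to 138 of 250 bases identical (median 123, 21 pairs), and pairs from different classes 102 to 144 (median 122.5, 124 pairs). Closely related pairs were more alike, at 184 bases for Gsta1 and Gsta2 and 207 for Gstp1 and Gstp2.

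The labels were checked on Pgrmc1 itself, at 0.68 TPM in KO against 949 TPM in WT. Reads estimated from the second deposited table numbered 22086688 (KO) and 29710410 (WT). The difference of a single gene between the pools is log2((KO TPM + 1)/(WT TPM + 1)). The log2 ratio of a sum of genes is taken without the added 1. The added 1 shrinks differences of genes at low TPM. Over the 11623 genes the median was -0.01 and 90% of genes, from the 5th to the 95th percentile, lay between -0.27 and 0.27. Intervals are 95% intervals of the log2 ratio of the authors' means in the second table. They hold the error of counting alone, without the variation among mice, and need not be centred on the TPM difference. Hepatocyte markers such as Alb and Apoa1 summed to 80391 TPM in KO against 83592 TPM in WT (ratio 0.962). Alb made most of this sum (47242 TPM in KO, 49729 TPM in WT). Of these 7 markers 6 lay below 0, and they ran from Tat at -0.28 (1435 TPM in KO, 1739 TPM in WT) to Cyp2e1 at 0.11. In sum, Kupffer cell markers had a ratio of 1.13 (6 of 6 measured genes above 0), endothelial markers 0.901 (6 of 6 below 0), stellate markers 0.902, cholangiocyte markers 0.927 and red cell markers 0.988. Spp1 made most of the cholangiocyte sum (57.8 of 62.1 TPM in KO, 61.4 of 67.0 TPM in WT), so that ratio is mostly the ratio of 1 gene. Single markers departed from these sums: Hbb-bs was at 41.3 TPM in KO against 77.1 TPM in WT (log2 -0.89) while Hba-a1 was higher (0.19), and Lyve1 (endothelial) and Epcam (cholangiocyte) had differences of -0.60 and -0.59. No marker in the table was at 0 in both pools. Their part in the differences below was not tested, and in bulk tissue fewer cells of a type and less RNA per cell cannot be told apart.

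Across the 35 genes, most levels in the KO pool were close to those in the WT pool. The median difference was -0.05, with 24 genes below 0, 10 above and Gpx8 equal, and the range ran from -0.67 for Gstm3 to 0.12 for Gsto1. Among all genes, 53.8% lay below 0. Of the 6235 genes with a mean of 10 TPM or more, as 30 of the members had, 57.8% lay below 0. No member reached the fold thresholds of the study, read here as at least 1.4 or at most 0.6, where 1.21% of all genes were higher and 0.301% lower. The study also set a minimum probability of differential expression, which was not applied here, so these shares are not counts by its full rule. At a fold of at most 1/1.4, 3 members were lower (Gsta1, Gstm3 and Mgst3; 8.57% of the 35, against 1.02% of all genes). At a fold of at most 1/1.2 there were 5, with Gstm1 and Gstm4 added (14.3%, against 5.51% of all genes), and none was at or above 1.2, where 5.39% of all genes were. The counting interval lay below 0 for 6 members and above 0 for 5, and held 0 for 24.

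**Figure D1:**
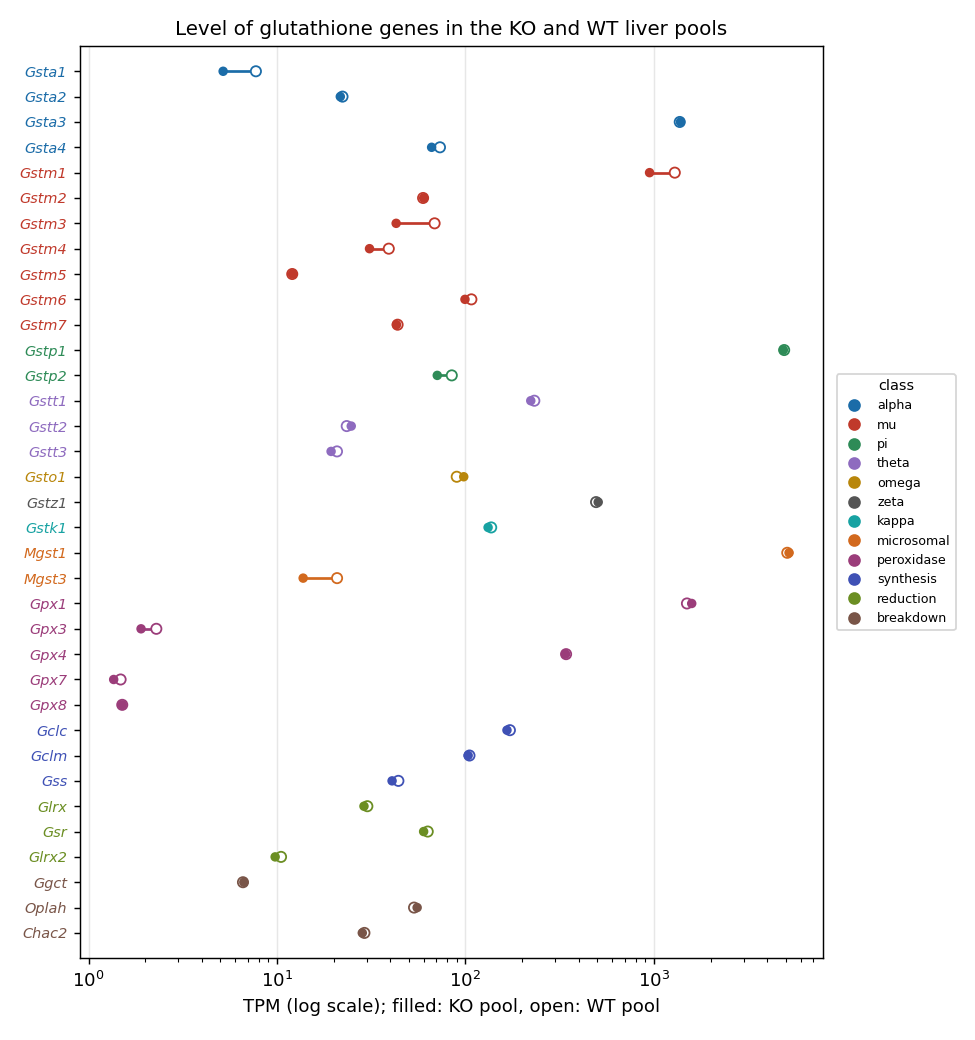
Level of the 35 genes with a mean TPM of 1 or more in the KO pool (filled) and the WT pool (open), in TPM on a log axis, coloured by class. Levels run from near 1 TPM (Gpx7, Gpx8) to 5216 TPM (Mgst1 in KO), and the pools stand visibly apart for Gsta1, Gstm1, Gstm3, Gstm4 and Mgst3.

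The mu class transferases are cytosolic enzymes that conjugate many drugs and epoxides. Gstm1, the most abundant of them in these libraries, was at 949 TPM in KO against 1291 TPM in WT, a fold of 0.735 and a log2 difference of -0.44 (interval -0.46 to -0.40). It rested on 15018 estimated reads in KO and 27263 in WT, so its counting error is small. Only 1.41% of all genes had a difference as low or lower.

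Gstm3 had the lowest difference of all members. It was at 42.9 TPM in KO against 68.6 TPM in WT, a fold of 0.631 and a log2 difference of -0.67 (interval -0.80 to -0.52; 623 and 1328 estimated reads). Of its transcript windows of 100 bases, 13.8% were also found in another gene, and RSEM divides reads that match several genes. Gstm4 was at 31.0 TPM in KO against 39.2 TPM in WT, a log2 difference of -0.33 (interval -0.48 to -0.19), and shares 0% of its windows. The other mu genes were closer to equal. Gstm6 was at 99.5 TPM in KO against 108 TPM in WT (-0.11, interval -0.19 to 0.006), while Gstm2, Gstm5 and Gstm7 had differences of 0.01, 0.00 and -0.02, each with an interval that held 0.

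Summed over the 7 genes, the mu class was at 1237 TPM in KO against 1622 TPM in WT, a ratio of 0.763 (log2 -0.39, interval -0.40 to -0.35). Gstm1 made 89.0% of this difference in TPM. Without Gstm1 the sum was 289 TPM in KO against 331 TPM in WT (log2 -0.20, interval -0.25 to -0.14). The sum of Gstm1, Gstm2, Gstm3 and Gstm6, which does not depend on how reads are divided among those 4 genes, had a log2 ratio of -0.41. Gstm1 made 82.4% of that sum in KO, so the sum says little of Gstm3 alone. Gstm3 shares 1.65% of its windows with Gstm1 and 2.15% with Gstm6. It shares more with Gm8834 (7.43%) and Gstm2-ps1 (3.22%), which have no TPM here and could not be added.

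The mu genes lie within 149.3 kb (chr3:107895854-108045179, GRCm38). In order of position they are Gstm5, Gstm7, Gstm6, Gstm3, Gstm2, Gstm1 and Gstm4, with Gstm5 on the plus strand and the others on the minus strand. The lower genes are 3 of the last 4 in this order, and Gstm2 interrupts them. Of the nearest neighbours with a mean TPM of 1 or more, Ahcyl1 and Csf1 on the Gstm5 side had differences of 0.04 and 0.09. On the Gstm4 side Ampd2, Gnai3 and Amigo1 had -0.12, -0.17 and -0.16, which lie inside the range of the central 90% of genes.

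**Figure D2:**
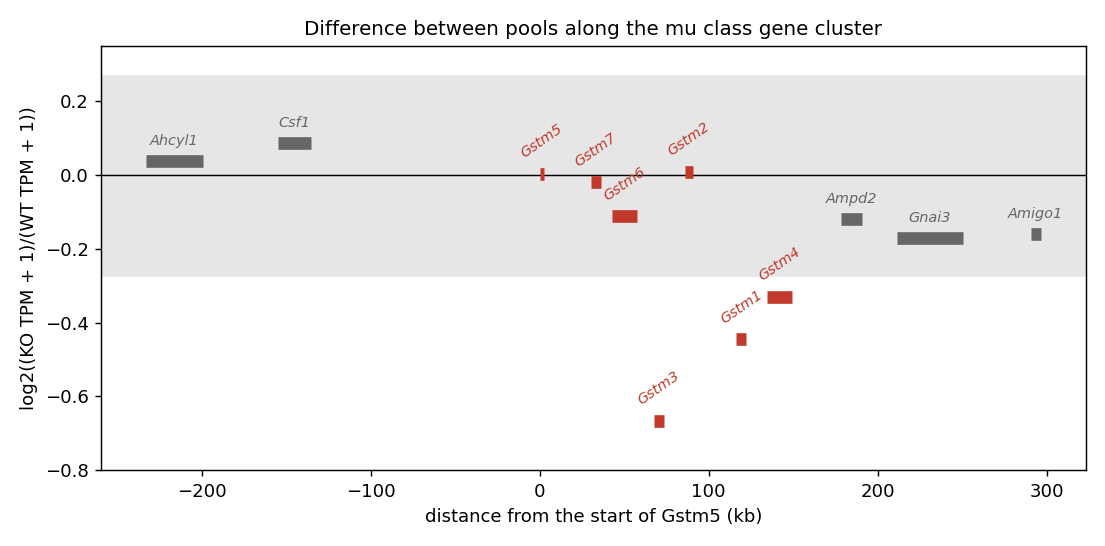
Log2 difference between the KO and WT pools (vertical axis) for the 7 mu genes (red) and 5 neighbours (grey), drawn as gene bodies at their distance in kb from the start of Gstm5. The shaded band is the 5th to 95th percentile of all genes (-0.27 to 0.27); Gstm3, Gstm1 and Gstm4 fall below it and Gstm2, between them, stands at 0.01.

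The other soluble classes carried little difference in sum. Alpha class enzymes conjugate lipid peroxidation products and bind bilirubin and steroids. Their sum was 1477 TPM in KO against 1475 TPM in WT, set by Gsta3, at 1384 TPM in KO against 1372 TPM in WT (log2 0.01). Gsta1 was at 5.18 TPM in KO against 7.73 TPM in WT (log2 -0.50, interval -1.11 to -0.07, from 49 and 99 estimated reads).

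Gsta1 could not be told apart well from its near copies. It shares 80.6% of its windows with other genes, 64.7% with the predicted gene Gm3776 and 24.3% with Gsta2. Gm3776 was at 3.66 TPM in KO against 6.08 TPM in WT, and the sum of Gsta1 and Gm3776 had a log2 ratio of -0.64 (interval -1.03 to -0.26). This ratio has no added 1, and Gsta1 alone was at -0.57 with 0.1 TPM added in place of 1. With Gsta2 (21.7 TPM in KO, 22.3 TPM in WT) added to Gsta1 alone the log2 ratio was -0.16 (interval -0.38 to 0.09), and over all 3 genes -0.24 (interval -0.44 to -0.01). Gsta4, which favours the lipid aldehyde 4-hydroxynonenal, was at 66.2 TPM in KO against 73.3 TPM in WT (log2 -0.14, interval -0.26 to 0.01).

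The pi class was the most abundant soluble class in male liver. Gstp1 was at 4866 TPM in KO against 4913 TPM in WT (log2 -0.01, interval -0.006 to 0.03), ranked 27 and 28 among all genes. Gstp2, chosen for mention after its values were seen because it falls just short of 1.2-fold, was at 70.9 TPM in KO against 84.6 TPM in WT (log2 -0.25, interval -0.38 to -0.08). It shares 46.9% of its windows, mostly with Gstp1, and the sum of both genes had a log2 ratio of -0.02.

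Theta class enzymes act on halogenated alkanes, and Gstt1 led them at 222 TPM in KO against 232 TPM in WT (log2 -0.06). Gstt2 and Gstt3 had differences of 0.08 and -0.10, each with an interval that held 0. Gsto1, an omega class enzyme that acts as a thiol transferase and reduces dehydroascorbate, was at 98.0 TPM in KO against 89.9 TPM in WT (log2 0.12, interval 0.04 to 0.25). Gstz1, the maleylacetoacetate isomerase of tyrosine breakdown, was at 506 TPM in KO against 493 TPM in WT (log2 0.04, interval 0.02 to 0.09). Gstk1, the kappa class enzyme of mitochondria and peroxisomes, was at 132 TPM in KO against 137 TPM in WT (log2 -0.05). All 3 differences were well inside the central 90% of genes.

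Over all 20 soluble transferase genes other than Gstk1, the sum was 8522 TPM in KO against 8954 TPM in WT, a ratio of 0.952 (log2 -0.07, interval -0.08 to -0.06). The mu class made 89.0% of this difference. Without it the sums were 7285 and 7332 TPM (log2 -0.01), and from the authors' means the log2 ratio of the same genes was 0.02.

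The microsomal transferases are membrane proteins of the endoplasmic reticulum and outer mitochondrial membrane, unrelated in fold to the soluble enzymes. Mgst1 was at 5216 TPM in KO against 5102.5 TPM in WT (log2 0.03, interval 0.04 to 0.07), the most abundant member, and made 99.7% of the microsomal sum in KO. Mgst3, which also acts as a peroxidase on lipid hydroperoxides, was at 13.8 TPM in KO against 20.8 TPM in WT, a fold of 0.676 and a log2 difference of -0.56 (interval -0.96 to -0.20). It shares 0% of its windows, and rests on 89 estimated reads in KO and 179 in WT. Mgst3 lies at chr1:167371966-167393841, apart from the mu genes.

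**Figure D3:**
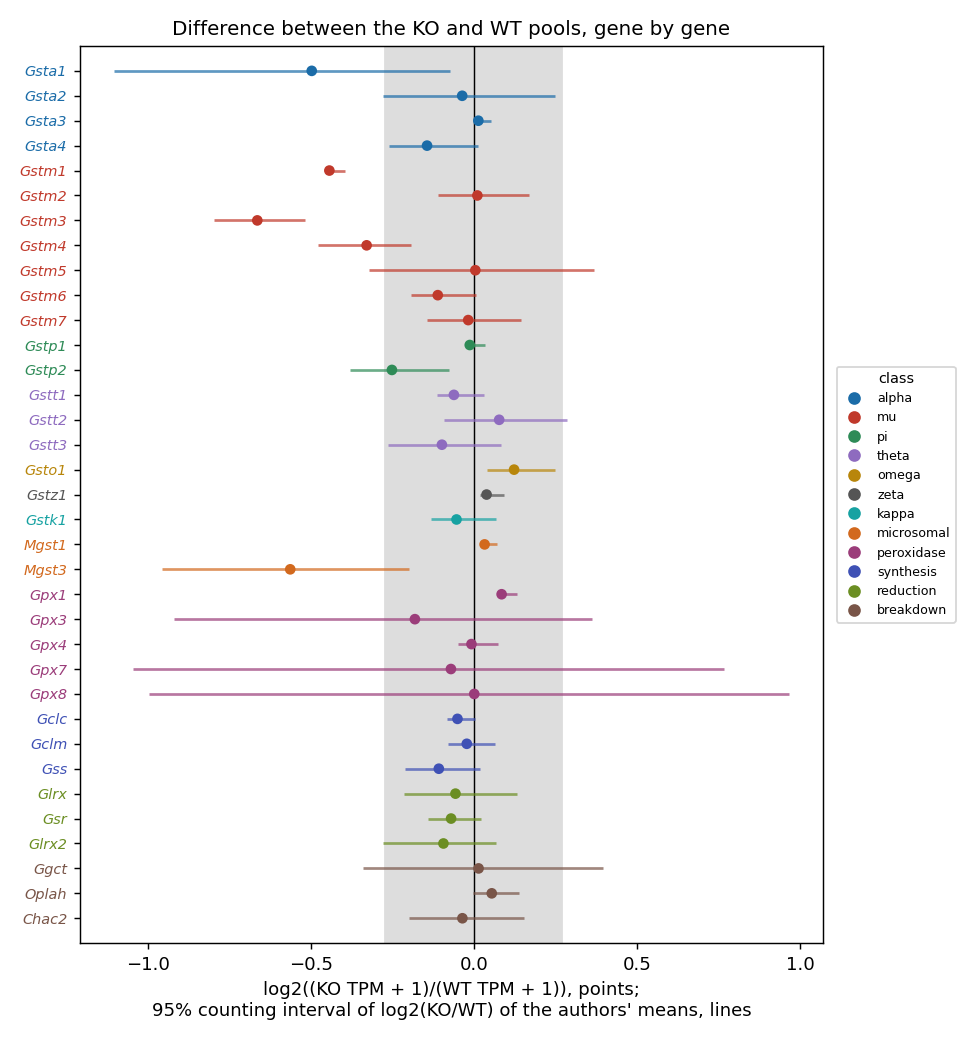
Log2 difference between the KO and WT pools for the 35 genes (points, horizontal axis), with 95% counting intervals of the authors' means (lines) and the 5th to 95th percentile of all genes (shaded). Gsta1, Gstm1, Gstm3, Gstm4 and Mgst3 lie below the shaded band and no gene lies above it.

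The selenium enzyme Gpx1, which reduces hydrogen peroxide in the cytosol, was at 1588 TPM in KO against 1498 TPM in WT (log2 0.08, interval 0.08 to 0.13). Gpx4, which reduces lipid hydroperoxides in membranes, was at 340.05 TPM in KO against 342 TPM in WT (log2 -0.01), and shares 25.2% of its windows, mostly with a pseudogene. Gpx3, Gpx7 and Gpx8 were under 3 TPM in both pools, with intervals that held 0. The peroxidase sum had a log2 ratio of 0.07.

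Synthesis of glutathione runs through glutamate-cysteine ligase and glutathione synthetase. Gclc, the catalytic subunit of the ligase and its rate-limiting part, was at 166 TPM in KO against 172 TPM in WT (log2 -0.05, interval -0.08 to 0.003). Gclm, its modifier subunit, was at 103 TPM in KO against 105 TPM in WT (log2 -0.02). Gss, the synthetase, was at 40.8 TPM in KO against 44.1 TPM in WT (log2 -0.11, interval -0.21 to 0.02). All 3 lay slightly below 0 and none reached 1.2-fold.

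Recycling and breakdown were likewise close to equal. The reductase Gsr was at 60.0 TPM in KO against 63.1 TPM in WT (log2 -0.07, interval -0.14 to 0.02), and the glutaredoxins Glrx and Glrx2, which reduce protein-glutathione disulfides, had differences of -0.06 and -0.09. Oplah, which opens 5-oxoproline to glutamate, was at 55.4 TPM in KO against 53.4 TPM in WT (log2 0.05). Ggct and Chac2, which cleave gamma-glutamyl compounds and glutathione, had differences of 0.01 and -0.04. The remaining 7 members (Gstt4, Gsto2, Mgst2, Gpx2, Gpx5, Gpx6 and Ggt1) were under 1 TPM in both pools and were not compared.

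Connected pathways, in lists written from general knowledge, held 74 different genes with a mean TPM of 1 or more. None was past the study's fold thresholds with the added 1 TPM, but G6pdx (down) and Nat8 (up) were with 0.1 TPM added in its place (folds of 0.580 and 1.41) and from the authors' means (0.573 and 1.43). Of 8 genes that supply NADPH, 4 lay below 0 (median -0.03). G6pdx, the first enzyme of the pentose phosphate pathway, was lowest at 2.96 TPM in KO against 5.18 TPM in WT (log2 -0.64, interval -1.15 to -0.46), and Me1, malic enzyme, was at 122 and 154 TPM (log2 -0.33). Nnt, the mitochondrial transhydrogenase, was the highest at 0.22. Of 12 genes for conjugate export and mercapturate formation, 7 lay above 0 (median 0.03), from Abcc4 at -0.19 to Nat8, the acetyltransferase that completes mercapturates, at 14.7 TPM in KO against 10.5 TPM in WT (log2 0.46, interval 0.19 to 0.85).

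Among 17 NRF2 regulators and targets outside the member list, 15 lay below 0 (88.2%, against 53.8% of all genes), with a median of -0.11. The range ran from G6pdx to Nfe2l2 itself, at 40.5 TPM in KO against 39.3 TPM in WT (log2 0.04). At 1/1.2 or lower stood G6pdx and Me1, already given, the small Maf partners Mafg (25.4 TPM in KO, 31.7 TPM in WT) and Maff (3.14 and 4.01 TPM), and the repressor Bach1 (16.2 and 20.6 TPM, log2 -0.32). Nqo1, a standard target of the pathway, was at 4.51 TPM in KO against 4.58 TPM in WT (interval -0.42 to 0.41). Among the genes below 0, intervals of Maff (-0.79 to 0.09), Keap1, Mafk, Osgin1, Abcc4, Ephx1, Cbr1 and Aox1 also held 0.

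The other lists spread narrowly about 0. Cysteine and methionine supply (11 genes) had a median of 0.02, and Cbs, which joins homocysteine to serine, was lowest at -0.15. The thioredoxin and peroxiredoxin system (17 genes) had a median of -0.02, from Txnip at -0.17 to Txnrd3 at 0.14. The glyoxalase and thioester branch (6 genes) had a median of -0.06, from Glo1 at -0.10 to Ldhd at 0.08. Other proteins with a transferase fold or of the eicosanoid MAPEG family (8 genes) had a median of 0.00, from Clic1 at -0.22 to Ptges2 at 0.12. In the order given, 4 of 11, 12 of 17, 5 of 6 and 4 of 8 genes lay below 0, against 53.8% of all genes.

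**Figure D4:**
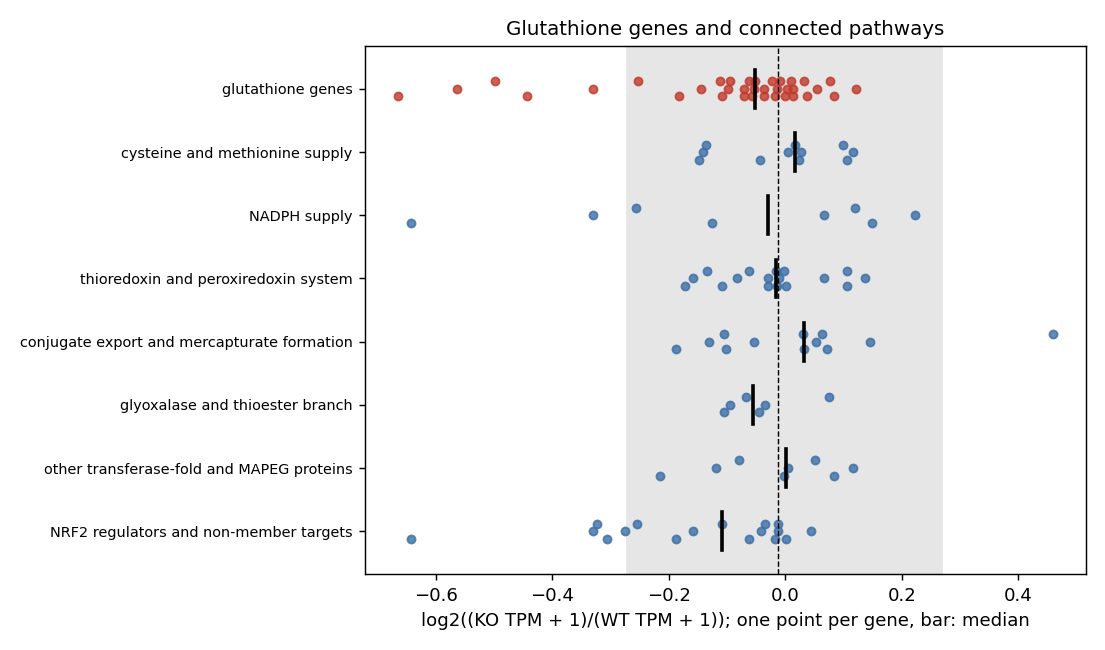
Log2 difference between the KO and WT pools for the glutathione genes (red) and 7 lists of connected genes (blue), 1 point per gene with a mean TPM of 1 or more, with the median as a bar. The dashed line is the median of all genes (-0.01) and the shading their 5th to 95th percentile; the lowest points are Gstm3 among the glutathione genes and G6pdx among the lists.

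Other conjugation enzymes were compared with the transferases. They were 35 glucuronosyl- and sulfotransferase genes, with symbols of Ugt or Sult plus a number, a letter and a number. Of these, 20 had a mean TPM of 1 or more, and their median was 0.07, with 9 below 0 and 11 above. Among the 20, 1 was past the 1.4-fold threshold (Ugt2b37, log2 0.56), against 1.21% of all genes. At or above 1.2-fold were 6 (Sult5a1, Ugt1a1, Ugt1a10, Ugt1a9, Ugt2b37 and Ugt2b38; 30% of the 20, against 5.39% of all genes), and none was at 1/1.2 or lower. Shared windows were not counted for the Ugt and Sult genes, so how far divided reads enter these 6 was not tested. Of the 21 glutathione transferase genes, 14 lay below 0 (66.7%, against 53.8% of all genes and 57.8% of those with 10 TPM or more). Among the 21, 5 were at 1/1.2 or lower (against 5.51% of all genes), and none was at or above 1.2-fold. No test of this difference between families was made, since 1 library per genotype gives none.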

How the data were processed

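Liver RNA was sequenced with a stranded total RNA kit in paired reads. Per the submitters' processing notes and the study's methods, the authors used CASAVA 1.8.2 and ran RSEM 1.2.09 with Bowtie on mm10. They deposited posterior mean TPM for 24054 genes, with column sums of 1005325 (KO) and 994702 (WT). A second deposited table of 16318 genes holds a normalized mean signal per library (estimated reads divided by an EBSeq size factor), headed as conditions 1 and 2. These were read as KO and WT from the order of the comparison and the headings in the study's supplement. Its probabilities of equal and differential expression and its fold columns are the authors' comparison and were not used.

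The differences of single genes were computed on TPM with a pseudocount of 1 TPM for genes with a mean TPM of 1 or more. Ratios of sums had no pseudocount. The value of 1 read was taken from the steps of low means (1.16 in KO, 0.860 in WT), where 78.4% and 75.0% of values were whole reads within 0.02. These shares are too low to recover whole reads, so no count test was run. Intervals are Clopper-Pearson intervals at 95% from the estimated reads rounded to whole numbers. They are approximate for the same reason, and whether 1 holds 0 is a description and not a test between genotypes. No p-value was computed, since each genotype has 1 library.

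The members and lists were chosen with earlier results of these data known. Named were members past 1.2-fold, the most abundant of each class, the synthesis enzymes and the reductase, and the highest and lowest gene of each list (for 1 list the highest is not reported here). Any other gene was named after its values were seen. All 42 members matched RefSeq on GRCm38.p6 and GENCODE transcripts (windows of 100 bases), 39 the second table, and 37 the RefSeq promoter windows. Protein sequences were not analysed here. Alternatives were the second table's means, a shift by the median difference, a rescaling that omits the 50 genes of highest TPM, other filters, pseudocounts and thresholds, and sums over similar genes. Python 3.11.15 was used with numpy 2.4.6, pandas 2.3.3, scipy 1.17.1, matplotlib 3.10.9 and Biopython 1.88.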

Additional observations from a re-analysis of the deposited data

How the results depend on the processing

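The number of members past the study's fold thresholds was 0 with the second table's means, after a shift by the median difference, after rescaling, a pseudocount of 0.1 TPM, no filter, a minimum mean of 10 TPM, and thresholds of 2 and 0.5. It was 3 with thresholds of 1.4 and 1/1.4, and 5 with 1.2 and 1/1.2. The log2 ratio of the soluble sum was -0.058 after that shift and -0.14 without Gstp1. That of the mu sum was -0.20 without Gstm1. Of the 35 single members, 33 moved by less than their counting interval reaches to one side with the authors' means, and Gstp1 and Mgst1 moved by more. Gstp1 and Gpx4 changed sign there, and Gpx4 also after the shift; both lay within 0.014 of 0. The cause was not tested. Among similar genes, the sum of Gstp2 with Gstp1 was at -0.02, and that of Gstm3 with Gstm1, Gstm2 and Gstm6 at -0.41. These sums are set mostly by the abundant genes Gstp1 and Gstm1. The pathway lists held 0 genes past the thresholds, but 2 (G6pdx and Nat8) with a pseudocount of 0.1 TPM and 2 with the second table's means. These counts and the sums of Gsta1 with Gm3776 were added after seeing the data. No paired analysis was possible because only 1 library stands for each genotype, and for the same reason no replicate could be left out. Depth limits the low genes most, such as Gpx7 and Gpx8, and the pools give no measure of differences between mice.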
